A study of Homo sapiens with 3 samples.

Results

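The glypicans are a family of 6 genes, GPC1 to GPC6, whose RNA was examined for crosslinks to MATR3 (Matrin 3), a nuclear RNA-binding protein. Members were the clusters, or runs of overlapping reads, that the deposited tables assign to one of these gene names. There were 359 such clusters among 115227 in all, spread over 3 libraries: 205 of 87230 in replicate 1 of the wild type (WT), 152 of 27155 in its replicate 2 and 2 of 842 in the MATR3 knockout (KO). The members were chosen by gene name. GPC3 among them was selected on the number of its intronic clusters in these libraries. That number, and the shares, densities, ratios and ranks built on it, are descriptions and were not tested. Replicate 1 and replicate 2 below always mean the WT libraries.

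The libraries come from PAR-CLIP, in which cells take up a photoreactive uridine analogue, ultraviolet light links protein to RNA, and crosslinked uridines are read as C in the sequence. All were made from HAP1, an established near-haploid human line derived from the KBM-7 chronic myeloid leukaemia line. The groups are Wild Type HAP1, with 2 independent replicates, and a MATR3 knockout HAP1 line from the same supplier, with 1 library as negative control. RNase T1, which cuts RNA after G, was used on all 3 libraries, and precipitation was with beads against FLAG, although no tag on MATR3 is recorded in the labels. Whether the KO line is 1 clone is not stated there either. Cluster lists do not report expression, so the cell type could not be checked against marker genes.

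Glypicans are heparan sulphate proteoglycans held on the outer cell membrane by a lipid (GPI) anchor. They bind secreted signals of the Wnt, Hedgehog, FGF and BMP families and raise or lower the response to them. GPC3 restrains growth in the embryo, its loss causes the Simpson-Golabi-Behmel overgrowth syndrome, and it is widely used as a marker of liver cancer. MATR3 contacts mainly introns of unspliced transcripts, where it is known to hold back the inclusion of nearby exons, and it favours pyrimidine-rich RNA.

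The sites that carry the most reads in both WT libraries show what a member looks like. The 5 overlapping pairs of GPC3 clusters with the most reads (by geometric mean) are printed here as DNA, 5′ to 3′ in the direction of transcription, from the tables. Capitals mark the longest run of C and T. Coordinates are those of the tables, which the submitters' processing notes tie to hg38, all on the minus strand.

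GPC3 chrX:133913322-133913354: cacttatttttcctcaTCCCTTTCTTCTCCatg

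GPC3 chrX:133913103-133913138: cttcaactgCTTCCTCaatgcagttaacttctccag

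GPC3 chrX:133949962-133949998: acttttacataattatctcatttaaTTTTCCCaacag

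GPC3 chrX:133845381-133845411: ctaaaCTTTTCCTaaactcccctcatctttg

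GPC3 chrX:133972826-133972859: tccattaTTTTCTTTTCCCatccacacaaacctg

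Each of these 5 sequences ends in G, the base after which RNase T1 cuts. The longest C and T run among them was 14 nt. In 4 of the 5 pairs replicate 2 had the same 2 ends to the base; at chrX:133949962-133949998 its cluster began 1 nt later.

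Facts of the whole series set the scale. replicate 1 held 2668797 reads in its clusters, replicate 2 held 1558995 and KO held 224142. replicate 2 had 31.1% as many clusters as replicate 1, but its intronic clusters were deeper, with a median of 38 reads against 20. MATR3 itself had 53 clusters in replicate 1, 26 in replicate 2 and 0 in KO. KO had clusters in only 619 genes, against 9189 and 6043 in the WT libraries. Absence from KO is therefore common, and this count checks neither the MATR3 RNA nor the protein. Sequencing depth outside clusters and the RNA level of each gene were not analysed here, so more crosslinks per transcript and more transcripts cannot be told apart, nor can fewer cells and less RNA per cell in these bulk samples.

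The family was unevenly represented. GPC3, on chromosome X (133535745 to 133985594 in RefSeq, 450 kb), had 125 clusters in replicate 1, 104 in replicate 2 and 1 in KO. GPC4, its neighbour on the same strand of chromosome X (133300103 to 133415489, 115 kb) and a glypican linked to synapse formation, had 41, 23 and 1. GPC6 on chromosome 13 (93216529 to 94408020, 1191 kb), which is mutated in the skeletal disorder omodysplasia, had 37, 25 and 0. GPC5, next to GPC6 on chromosome 13 (91398621 to 92867237, 1469 kb), had 1 cluster in replicate 1 and none elsewhere. GPC2 on chromosome 7 (100169606 to 100177381, 7.78 kb), a glypican of developing neurons, likewise had 1 cluster in replicate 1 only. GPC1 on chromosome 2 (240435663 to 240468076, 32.4 kb) had none in any library. Over the WT libraries GPC3 averaged 114.5 ± 14.8 clusters (SD, n = 2), GPC4 32.0 ± 12.7 and GPC6 31.0 ± 8.49. GPC4 and GPC6 were not separated by the spread between the libraries, and neither were GPC2, GPC5 and GPC1.

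**Figure D1:**
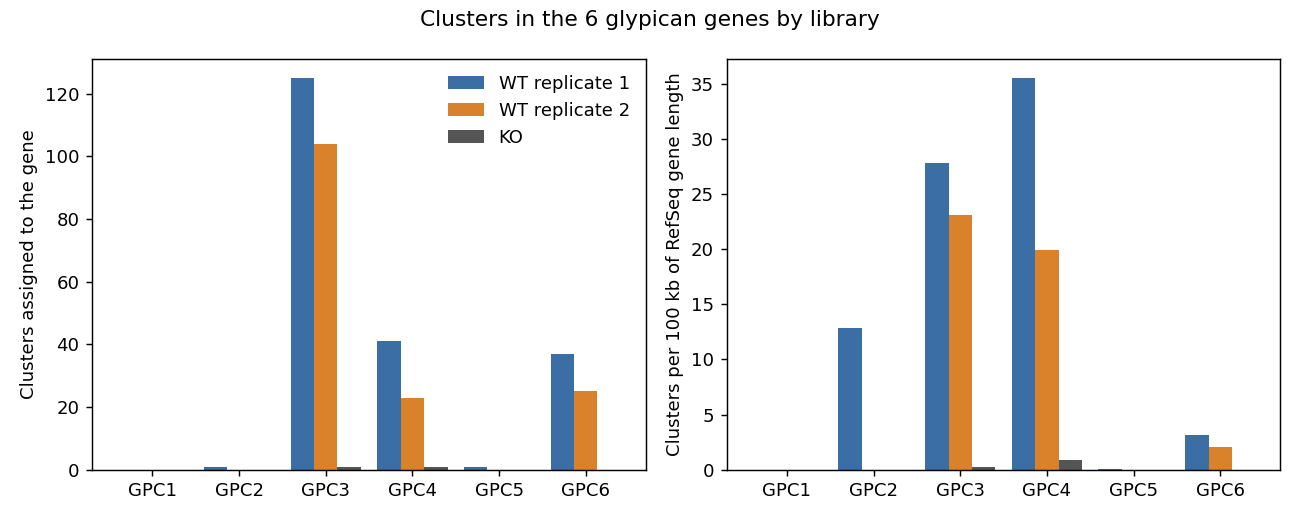
Clusters assigned to each glypican gene (left, number of clusters) and clusters per 100 kb of RefSeq gene length (right) in replicate 1, replicate 2 and KO; each bar is 1 library. GPC3 has the most clusters in both WT libraries, with 125 and 104, while per length GPC4 stands beside it at 35.5 and 19.9 per 100 kb.

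The order did not follow gene length. Per 100 kb of gene, GPC4 had 35.5 clusters in replicate 1 and 19.9 in replicate 2, and GPC3 had 27.8 and 23.1. Their WT means of 27.7 ± 11.03 and 25.5 ± 3.30 clusters per 100 kb (SD, n = 2) differed by less than the spread between libraries. GPC6 had 3.11 and 2.10 per 100 kb, and GPC5, the longest of the 6 genes, had 0.0681 and 0. Thus the 2 genes on chromosome X were about an order of magnitude denser than GPC6, and the order of GPC3 and GPC4 changed from one WT library to the other. Among 3356 protein-coding RefSeq genes of at least 100 kb, 112 were denser than GPC3 in replicate 1 and 5 were in replicate 2. For GPC4 the numbers were 55 and 13. GPC6 was near the middle in replicate 1, where 1562 genes were denser and the median gene had 2.38 clusters per 100 kb; in replicate 2 the median was 0.633.

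All 359 clusters of the family were annotated as intronic; introns held 84.1% of the clusters of replicate 1 and 83.1% of those of replicate 2 over the whole tables. Each lay inside the RefSeq interval of its gene. The tables give no intron number, and exon positions were not used here, so clusters are placed by distance from the RefSeq start. Within the RefSeq interval of GPC3 a single further cluster was found, on the opposite strand in replicate 1.

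GPC3 clusters ran over nearly the whole gene, from 1.46 to 445 kb behind its start in replicate 1 and from 12.8 to 438 kb in replicate 2. They were crowded toward the start. Of the 125 clusters of replicate 1, 81 lay in bins 1 to 5 of 10 equal bins counted from its start, a share of 64.8% (95% Wilson interval 56.1 to 72.6%). Of the 104 clusters of replicate 2, 82 lay there, or 78.8% (70.04 to 85.6%). Intronic clusters of all genes of at least 100 kb gave 62.3% in each WT library. A narrower set of genes, closer to GPC3 in length, gave 61.2% in replicate 1 (357 genes). In replicate 2 that set gave 67.0% (65.2 to 68.8%, 303 genes), so it too lay nearer the start there. The GPC3 interval of replicate 1 thus included the levels of both gene sets. That of replicate 2 lay above both, but by less for the genes closer in length. The intervals cover counting error over clusters only, and the GPC3 intervals of both libraries overlapped. Weighted by reads, the share was 75.5% in replicate 1 and 85.6% in replicate 2, beside 65.4% and 63.02% over genes of at least 100 kb. The genes closer in length gave 64.3% and 68.1% by reads.

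**Figure D2:**
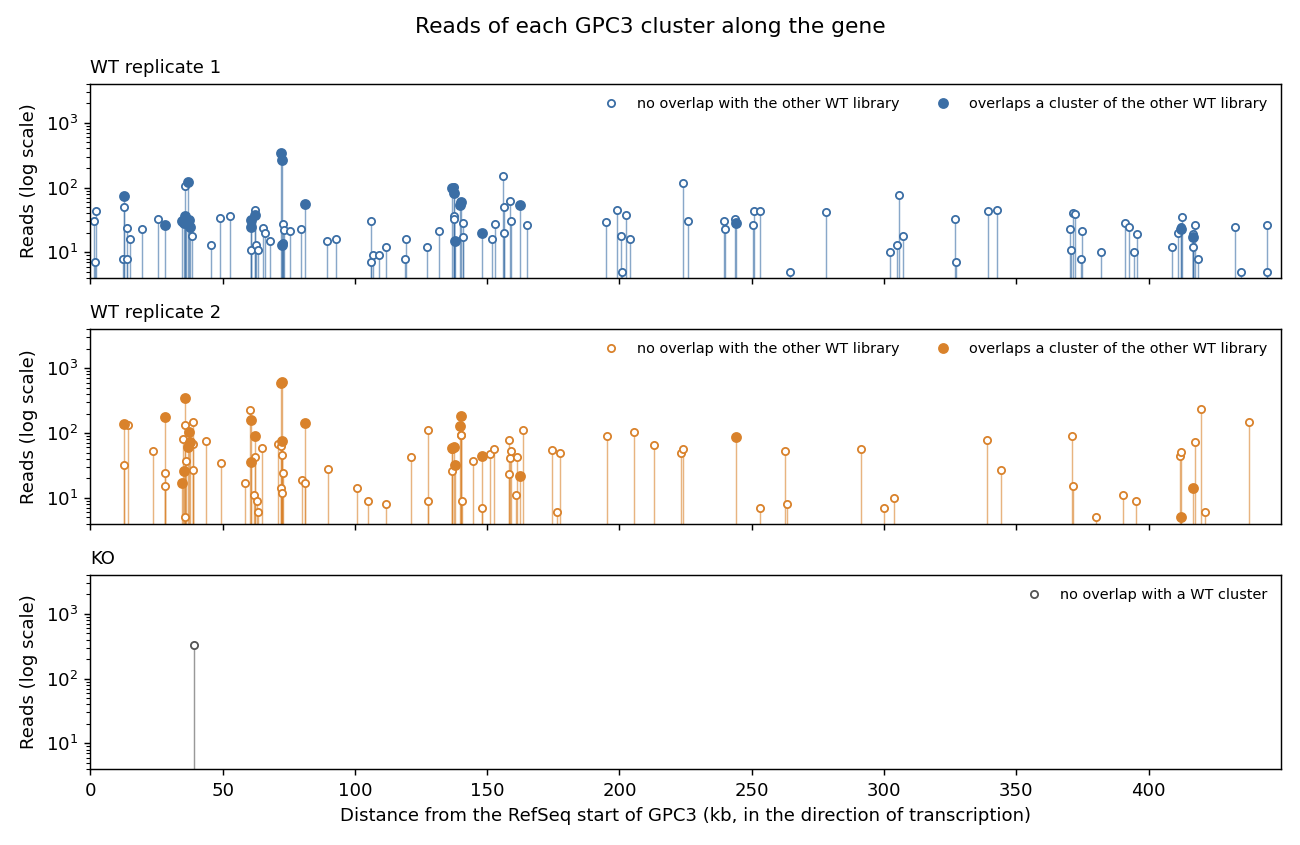
Each point is 1 GPC3 cluster at its distance from the RefSeq start (kb, x axis) with its number of reads (y axis, log scale), in replicate 1, replicate 2 and KO; filled points overlap a cluster of the other WT library. The tallest points of both WT libraries stand together 72 kb from the start, and 22 of the 25 overlapping clusters of each library lie in bins 1 to 4 of 10 equal bins of the gene.

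In number, though not as a share of their libraries, the GPC3 clusters of both replicates were alike near the start of the gene. In bins 1 and 2, each 45.0 kb long, replicate 1 had 21 and 23 clusters and replicate 2 also had 21 and 23. Bin 4 held 20 and 26. Over the first 4 bins the totals were 74 and 77, while the last 6 bins held 51 in replicate 1 and 27 in replicate 2. Set against all clusters of each library, the share of replicate 2 over that of replicate 1 was 3.34 in the first 4 bins (95% exact interval 2.40 to 4.66) and 1.70 in the last 6 (1.03 to 2.76). The split into 4 and 6 bins was chosen after the positions were seen, and these intervals overlap. Over all genes of at least 100 kb the same ratios were 1.07 and 1.07. Genes closer to GPC3 in length had 51.4% of their intronic clusters in the first 4 bins in replicate 1 and 56.9% in replicate 2. GPC3 had 59.2% and 74.04% there.

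Spacing was uneven in both WT libraries. The median distance between neighbouring GPC3 clusters was 1.34 kb in replicate 1 and 1.15 kb in replicate 2. A neighbour of their own library within 1 kb was found for 81 of 125 and 71 of 104 clusters. The same share was not computed for other genes, so it is not set apart as a trait of GPC3. The longest stretches without a cluster measured 29.9 kb, from 165 to 195 kb in replicate 1, and 35.2 kb, from 304 to 339 kb in replicate 2. Over 45 windows of 10 kb, 29 held clusters of both WT libraries, 7 of replicate 1 only, 4 of replicate 2 only and 5 of neither. The cluster numbers of the 45 windows had a Pearson's r of 0.787 and a Spearman's rho of 0.618 between the WT libraries, given as a description since windows share the gene, the libraries and their base composition.

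The window from 70 to 80 kb held the most reads. Replicate 1 had 723 reads in 8 clusters there and replicate 2 had 1523 in 9, which was 16.7% and 21.2% of the gene's reads. Most of these came from 3 pairs of overlapping clusters within 252 nt, at chrX:133913103-133913354, with 616 reads in replicate 1 and 1294 in replicate 2. The outer 2 of these pairs are printed above. The pair at chrX:133913322-133913354 had 340 reads from 28 distinct read sequences in replicate 1 and 596 reads from 18 in replicate 2. It was the deepest GPC3 cluster of replicate 1. The pair at chrX:133913103-133913138 had 263 reads from 28 distinct sequences and 623 reads from 15, and was the deepest of replicate 2. Between them lies a shorter pyrimidine-rich site with 13 and 75 reads, shown because it is the closest neighbour of the deepest sites.

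GPC3 chrX:133913141-133913166: TCTCTCTactcttcattcattctcag

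The window from 30 to 40 kb had the most clusters of replicate 2, with 13 clusters and 1122 reads, against 9 clusters and 427 reads in replicate 1. It includes the pair at chrX:133949962-133949998, where the libraries differed most among the 5 printed pairs, with 36 reads in replicate 1 and 345 in replicate 2. In that cluster 33.3% of the reads of replicate 1 had a T-to-C change and 75.9% of those of replicate 2. Further downstream, the window from 130 to 140 kb went the other way, with 8 clusters and 443 reads in replicate 1 and 6 clusters and 361 reads in replicate 2. Depth within the gene was therefore not in a fixed ratio between the libraries.

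**Figure D3:**
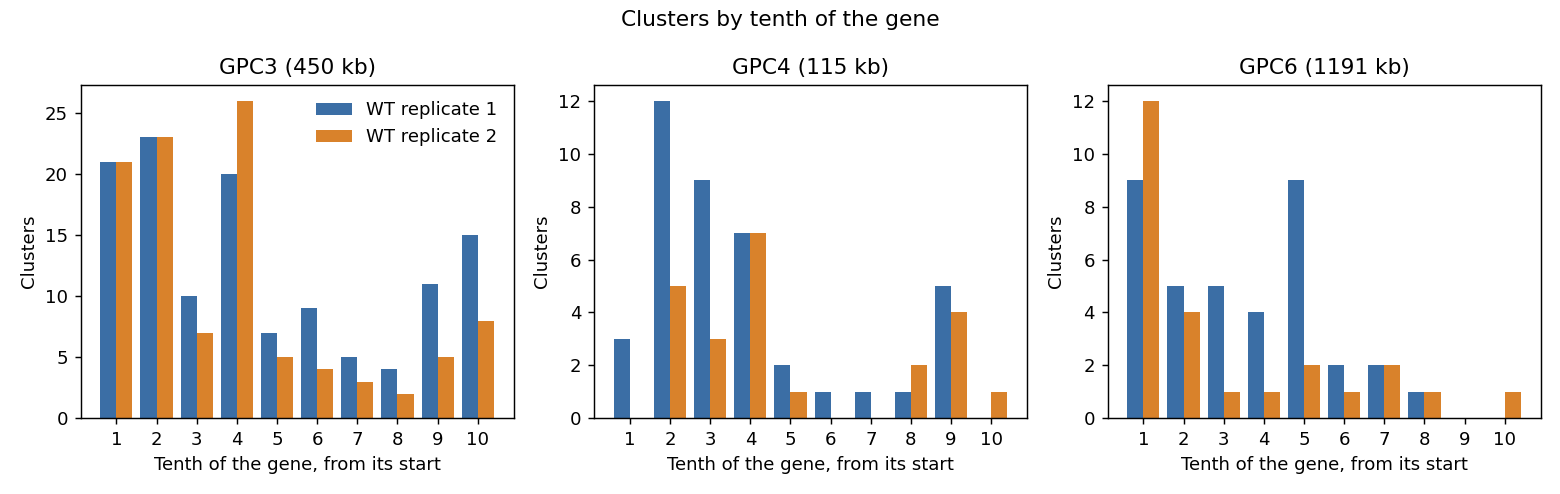
Number of clusters (y axis) in each of 10 equal bins of GPC3, GPC4 and GPC6 (x axis, counted from the gene's start) in replicate 1 and replicate 2; each bar is 1 library. GPC3 has 21 and 23 clusters in its first 2 bins in both libraries, and in GPC4 bins 5 to 8 hold 5 clusters in replicate 1 and 3 in replicate 2.

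GPC4 and GPC6 showed their own layouts. In GPC4, 33 of 41 clusters of replicate 1 and 16 of 23 of replicate 2 lay in the first 5 bins, and bin 9 held a further group of 5 and 4. That group carried 215 of 1310 reads in replicate 1 and 315 of 936 in replicate 2. In GPC6, 32 of 37 and 20 of 25 clusters lay in the first 5 bins, with 9 and 12 in bin 1, which spans 119 kb. In both genes the Wilson intervals of the libraries overlapped, from 66.0 to 89.8% and 49.1 to 84.4% for GPC4 and from 72.02 to 94.1% and 60.9 to 91.1% for GPC6.

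Single GPC3 clusters differed in depth between the WT libraries as the libraries did. In replicate 1 the lowest had 5 reads, the median was 25 and the highest had 340. In replicate 2 the lowest had 5, the median was 46.5 and the highest had 623. Clusters of 100 reads or more numbered 8 of 125 and 19 of 104, beside 2647 of 73317 and 3647 of 22569 intronic clusters. The number of distinct read sequences did not follow: its median was 3 in each WT library, so each distinct sequence was read 8.07 times in replicate 1 and 17.6 times in replicate 2. All intronic clusters gave 7.51 and 17.6. The median reads per cluster were 24 and 23 in GPC4 and 20 and 19 in GPC6, while reads per distinct sequence were 6.93 and 13.6 in GPC4 and 8.57 and 13.3 in GPC6. Thus each distinct sequence was read more often in replicate 2 in all 3 genes, and the median cluster was deeper there in GPC3 only. The 5 deepest clusters held 22.9% and 28.1% of the GPC3 reads, so reads were spread over many sites. In GPC4 the 5 deepest held 40% and 56.8%, and in GPC6 29.9% and 49.6%. Both genes have fewer clusters than GPC3, and 5 clusters are then a larger part of the whole.

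The share of the library that fell on GPC3 differed between the WT libraries. GPC3 took 0.143% of the clusters of replicate 1 (95% Wilson interval 0.120 to 0.171%) and 0.383% of those of replicate 2 (0.316 to 0.464%), a ratio of 2.67 (95% exact interval 2.04 to 3.49). It took 0.162% and 0.462% of the cluster reads, with 4334 and 7199 reads, a ratio of 2.84. By number of clusters it ranked 8 among genes in replicate 1 and 1 in replicate 2. The reads ratio of GPC4 was 1.22, from 1310 and 936 reads, and that of GPC6 was 1.56, from 891 and 812 reads. Their cluster ratios were 1.8 (1.03 to 3.07) and 2.17 (1.25 to 3.70), and these intervals overlap that of GPC3. So all 3 glypicans with clusters in both libraries took a larger share of replicate 2 than of replicate 1, and the ratio of GPC3 was above those of GPC4 and GPC6 on both measures. When the 27155 deepest clusters of each library were used, the order turned, with 2.50 for GPC6 (10 and 25 clusters) and 2.31 for GPC3 (45 and 104).

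**Figure D4:**
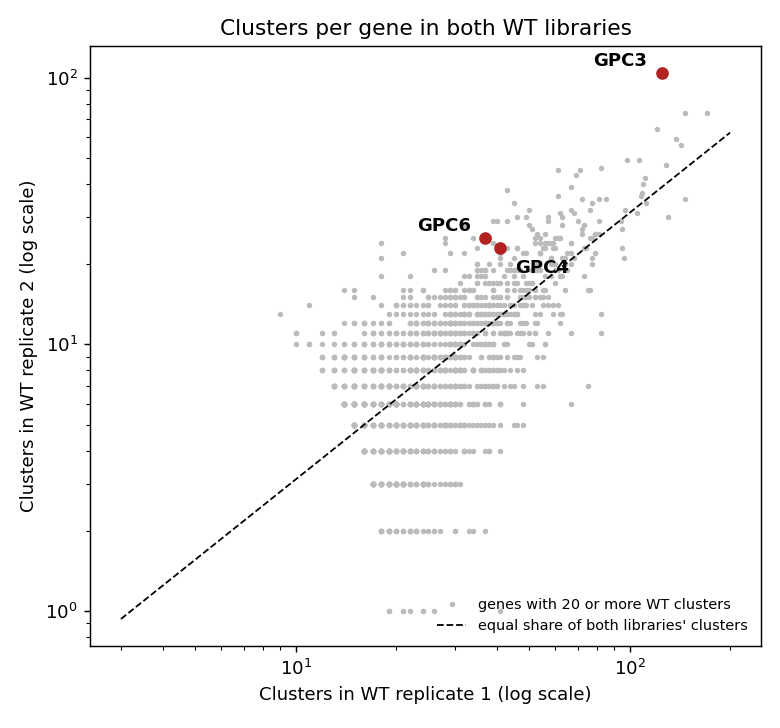
Clusters per gene in replicate 1 (x axis) and replicate 2 (y axis), both on log scales, for 1591 genes with at least 20 WT clusters together and some in each library; the dashed line marks an equal share of both libraries' clusters. GPC3, with 125 and 104 clusters, lies above the line and above every other gene on the y axis, and GPC4 and GPC6 also lie above the line.

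Among 1591 genes with at least 20 clusters over both WT libraries and some in each, the median ratio of cluster shares was 1.02, with quartiles of 0.718 and 1.38. Of these genes 6.29% had a cluster ratio of 2 or more, as did 2 of the 3 glypicans, GPC3 and GPC6, and 8.49% had a reads ratio of 2 or more, as did GPC3 alone of the 3. The cluster ratio of GPC6 was below 2 among clusters of at least 10 reads, at 1.75, and among those with at least 3 converted positions, at 1.13 from 9 and 2 clusters; GPC3 then had 2.41 and 3.76. A higher cluster ratio than that of GPC3 was found in 24 genes, and a higher reads ratio in 45. Among the 40 of these genes with at least 100 WT clusters GPC3 had the highest value of both. CACNB2, a calcium channel subunit gene, followed at 2.37 for clusters and 2.55 for reads. GPC3 was selected on its cluster number, which enters the cluster ratio, so its place among these genes is a description only. Chromosome X as a whole took 4.39% of the clusters of replicate 1 and 5.28% of those of replicate 2, a ratio of 1.20. The cause of the difference between the replicates was not tested.

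The 5 genes nearest to GPC3 by cluster numbers over the 3 libraries (Euclidean distance of log2(clusters + 1), among 9754 genes) were ADGRV1, TTC28, AUTS2, HDAC9 and SND1, at distances of 0.82 to 1.20. All had more than 50 clusters in each WT library and at most 2 in KO. Their ratios of cluster shares ran from 1.26 for TTC28 to 1.70 for AUTS2, below that of GPC3.

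Position agreed between the WT libraries for a minority of clusters. Of the GPC3 clusters, 25 of 125 in replicate 1 shared 1 nt or more of the same strand with one of replicate 2, a share of 20% (95% Wilson interval 13.9 to 27.9%), and 25 of 104 in replicate 2 overlapped one of replicate 1, or 24.04% (16.8 to 33.1%). Over all intronic clusters the shares were 6.19% and 20.3%. The GPC3 share of replicate 1 was above the level of all intronic clusters, and that of replicate 2 included it in its interval. Since replicate 2 offered 0.383% of its clusters in this gene and replicate 1 0.143%, the number of partners on offer moves with these shares, and its part in them was not tested. GPC3 clusters covered 0.952% of the gene in replicate 1 and 0.701% in replicate 2. Of the GPC3 clusters without overlap, 50 of 100 in replicate 1 and 55 of 79 in replicate 2 had a cluster of the other library within 1000 nt. No such share was computed for other genes of like density, so these counts are not read as agreement of position.

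In GPC4, 10 of 41 and 10 of 23 clusters overlapped, or 24.4% (13.8 to 39.3%) and 43.5% (25.6 to 63.2%). In GPC6 only 1 of 37 and 1 of 25 did, or 2.70% (0.479 to 13.8%) and 4% (0.710 to 19.5%). The GPC6 interval in replicate 2 ended below 20.3%, the level of all intronic clusters, while the one in replicate 1 included 6.19%. GPC4 and GPC6 had similar numbers of clusters, but those of GPC6 were spread over a gene of 1191 kb beside 115 kb. Whether gene length bears on the overlap was not tested. The GPC2 and GPC5 clusters had no partner.

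Overlap went with depth. GPC3 clusters that overlapped had a median of 32 reads in replicate 1 and 75 in replicate 2, against 23 and 43 for those that did not, and medians of 6 and 5 distinct read sequences against 3 and 3. In replicate 1 the share was 6.67% for clusters of 5 to 19 reads, 19.4% (11.4 to 30.9%) for 20 to 49, 60% (31.3 to 83.2%) for 50 to 99 and 50% (21.5 to 78.5%) for 100 or more. All intronic clusters of that library gave 3.42%, 5.61%, 13.0% and 29.8%. In replicate 2 the shares were 10.0%, 20.8%, 22.6% and 52.6% (31.7 to 72.7%), against 12.8%, 21.5%, 21.4% and 31.2%. The deepest classes rest on 8 and 19 GPC3 clusters. The overlapping clusters held 36.7% of the GPC3 reads of replicate 1 and 45.7% of those of replicate 2; over all intronic clusters it was 13.2% and 26.8%.

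**Figure D5:**
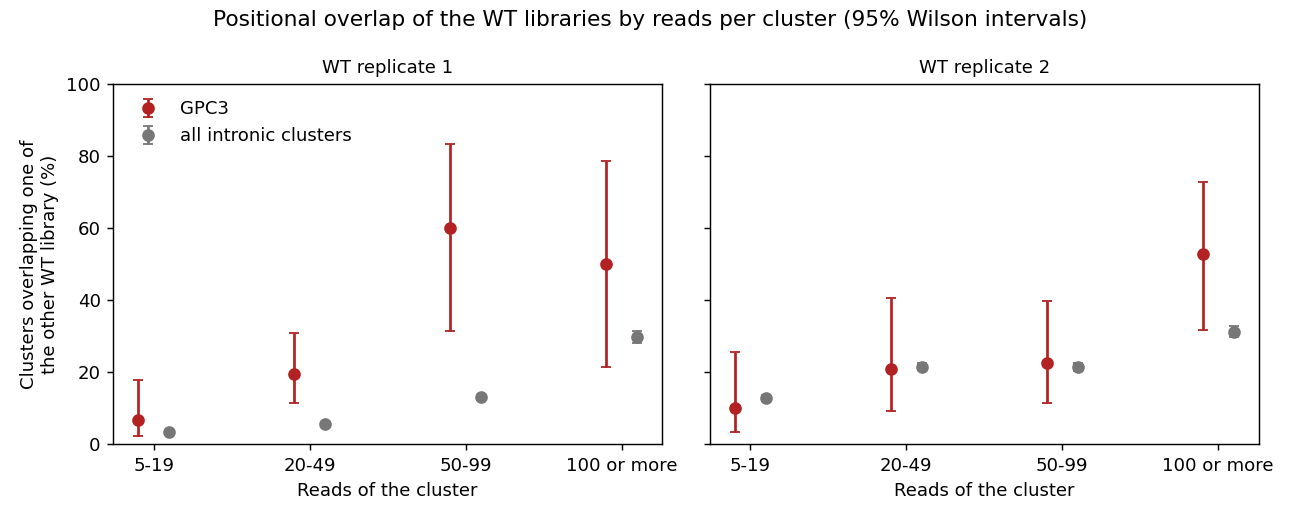
Share of clusters that overlap a cluster of the other WT library (y axis, percent) by reads of the cluster (x axis) for GPC3 and for all intronic clusters, in replicate 1 (left) and replicate 2 (right); bars are 95% Wilson intervals for counting error. GPC3 reaches 60% at 50 to 99 reads in replicate 1 and 52.6% at 100 or more reads in replicate 2.

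Where both libraries had a site, they often cut it at the same bases. Of the 25 GPC3 pairs, 13 had both ends in common, 19 the 3′ end and 14 the 5′ end. replicate 2 had more reads in 17 of the 25 pairs, by a median factor of 2.20 over all pairs and a range of 0.217 to 9.58. By distinct read sequences the order turned: replicate 1 had more in 14 pairs and replicate 2 in 9. In GPC4, 2 of 10 pairs shared both ends and 7 the 3′ end, and replicate 2 had more reads in 9. The deepest GPC4 pair is shown for its unbroken stretch of 21 pyrimidines; it held 95 reads in replicate 1 and 176 in replicate 2, where it was the deepest cluster of the gene.

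GPC4 chrX:133312756-133312788: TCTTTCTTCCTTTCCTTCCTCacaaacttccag

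In replicate 1 the deepest GPC4 cluster was another one, at chrX:133402407-133402444, with 182 reads, and the nearest cluster of replicate 2 lay 963 nt away. GPC6 gave a similar picture on the plus strand. Its deepest cluster in replicate 1 had 71 reads and lay 31508 nt from the nearest one of replicate 2, and its deepest in replicate 2 had 144 reads and lay 1302 nt from the nearest of replicate 1. These 3 clusters, with the single ones of GPC5 (25 reads from 3 distinct sequences) and GPC2 (9 reads from 1), are printed to show members found in 1 library only. The GPC5 and GPC6 clusters are on the plus strand and the GPC2 and GPC4 clusters on the minus strand.

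GPC4 chrX:133402407-133402444: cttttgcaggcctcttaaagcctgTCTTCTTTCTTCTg

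GPC6 chr13:93696258-93696289: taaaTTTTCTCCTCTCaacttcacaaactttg

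GPC6 chr13:93240478-93240515: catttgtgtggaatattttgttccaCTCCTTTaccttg

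GPC5 chr13:91554889-91554923: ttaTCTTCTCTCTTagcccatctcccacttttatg

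GPC2 chr7:100175535-100175564: atcctgaggcctgagcttcaaccaCTTCTg

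The KO library had 1 cluster in GPC3 and 1 in GPC4. Of 5526 genes with a cluster in both WT libraries, 8.69% had one in KO, as did 2 of the 3 glypicans among them. That share is not matched for cluster number, since only 1591 of these genes had 20 or more WT clusters, as the 3 glypicans did. Genes with at least 100 WT clusters differed in KO, with 0 clusters in HDAC9 and SND1 and 1 in ADGRV1 and TTC28. AUTS2 had 2 and DYRK1A had 4. The 2 of 3 glypicans are therefore not read as an excess over other genes. The GPC3 cluster had 332 reads from 3 distinct sequences, all but a few with a T-to-C change (99.1%), and lay 39.0 kb from the start. The GPC4 cluster had 271 reads from 5 distinct sequences. Neither overlapped a WT cluster: the GPC3 cluster was 669 nt from the nearest one of replicate 1 and 197 nt from that of replicate 2, and the GPC4 cluster 366 and 428 nt. Over all intronic clusters 0.03% of replicate 1 and 0.0443% of replicate 2 overlapped a KO cluster. C and T made up 25.9% of the GPC3 cluster, which consists largely of A and G, and 63.0% of the GPC4 cluster; intronic KO clusters together had 56.7%. The GPC3 cluster in KO carried an annotation from HAVANA, whereas the deepest GPC3 cluster of each WT library carried one from ENSEMBL.

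GPC3 in KO, chrX:133946523-133946549: tatggagagaagaaagttgagggCTTg

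GPC4 in KO, chrX:133360934-133360960: tatttaTTCTCCTaacttattaaacag

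As a share of its library, the KO cluster of GPC3 made up 0.119% of clusters (95% Wilson interval 0.0210 to 0.670%, for counting error in a single library). Genotypes were not tested against each other, since KO has 1 library.

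Conversion of T was read out of all T positions in the reads of a cluster. In GPC3, 7.78% of T positions read were converted in replicate 1 (95% Wilson interval 7.57 to 8.003%) and 7.65% in replicate 2 (7.48 to 7.82%), a mean of 7.72 ± 0.0931% (SD, n = 2). GPC4 gave 7.60% and 7.13%, and GPC6 8.13% and 7.69%, against 8.03% and 7.77% over all intronic clusters. The Wilson intervals of GPC3 in replicate 1 and of GPC4 in both replicates (7.21 to 8.004% and 6.69 to 7.60%) lay below these levels. Those of GPC6 and of GPC3 in replicate 2 included them. All these intervals count every T position of every read as independent and are too narrow. Each distinct GPC3 sequence was read 8.07 times in replicate 1 and 17.6 times in replicate 2. No difference from the intronic levels is therefore drawn. The single GPC2 cluster, with 9 reads, had 25% (16.4 to 36.1%) and the single GPC5 cluster 6.75% (4.68 to 9.64%). Clusters were called on such changes, with at least 2 converted positions each, so these levels are bounded from below by the calling. The median GPC3 cluster had T-to-C changes in 94.1% of its reads in replicate 1 and 96.6% in replicate 2. In replicate 1, 51.2% of GPC3 clusters had the minimum of 2 converted positions and in replicate 2 56.7%, compared with 58.7% and 74.7% of intronic clusters. GPC6 clusters had this minimum more often, in 75.7% and 92.0%. The cluster at chrX:133913322-133913354 had the most converted positions of GPC3, with 11 in replicate 1 and 10 in replicate 2, and the GPC4 cluster at chrX:133402407-133402444 also had 11 in replicate 1.

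GPC3 clusters were rich in pyrimidines. T made up 40.1% and 39.99% of their bases and C 28.4% and 28.1%, while intronic clusters had 40.4% and 42.1% T and 27.7% and 26.8% C. G was scarce, at 9.43% and 10.4%, beside 9.99% and 9.78% in intronic clusters. Still, 107 of 125 and 102 of 104 GPC3 cluster sequences ended in G, or 85.6% and 98.1%. Over all intronic clusters 73.9% and 94.6% did, and over those on the minus strand, where GPC3 lies, 81.0% and 96.1%. The longest C and T run had a median of 8 nt in both libraries, and reached 10 nt or more in 38.4% and 39.4% of GPC3 clusters, beside 34.9% and 35.1% of intronic clusters. Among the GPC3 clusters that overlapped between the WT libraries the share with such a run was 72.0% and 64.0%, which is 18 and 16 of 25. Both values describe the same 25 sites. No such share was computed for overlapping intronic clusters of all genes, so it is not set apart as a trait of GPC3. The longest run, of 33 nt, was in one of the overlapping GPC3 clusters, a 46 nt cluster of replicate 1 with 28 reads.

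GPC3 chrX:133950051-133950096: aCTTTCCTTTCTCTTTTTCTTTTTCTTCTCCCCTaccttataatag

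Short motifs were searched in the RNA strand of each cluster only. ATCTT, the word that in vitro selection gave for MATR3, was present in 15.2% of GPC3 clusters in replicate 1 (95% Wilson interval 9.95 to 22.5%) and 10.6% in replicate 2 (6.01 to 18.0%); intronic clusters held it in 14.8% and 15.9%. At least 1 of the words TTCTT, of TTTCT or of TCTTT, which can overlap one another, was in 49.6% (41.0 to 58.2%) and 48.1% (38.7 to 57.6%), against 52.2% and 54.5%. These shares of GPC3 included the intronic levels in their intervals. The most frequent pentamers of GPC3 clusters were TTTCT, with 14.8 and 15.3 per 1000 pentamers, and TTCTT, with 14.3 and 14.2; over intronic clusters they reached 13.4 and 14.9, and 13.2 and 15.1.

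A few GPC3 clusters were purine-rich. Fewer than 50% of the bases were C or T in 5 of 125 clusters of replicate 1, or 4% (1.72 to 9.02%), and in 10 of 104 of replicate 2, or 9.62% (5.31 to 16.8%). Intronic clusters gave 4.97% and 4.13%, so replicate 2 lay above its own background and replicate 1 did not. In KO such clusters made up 27.2% of the 540 intronic clusters. Of the overlapping pairs of GPC3 a single one was of this kind in both libraries; it had 38 reads in replicate 1 and 91 in replicate 2 and was chosen for print after its values were seen.

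GPC3 chrX:133923359-133923395: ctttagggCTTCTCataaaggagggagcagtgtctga

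Genes that build the heparan sulphate chains of glypicans, other proteoglycans that carry them and signalling partners were examined as a list of 55 genes, all of which matched RefSeq. Of these, 20 had clusters in both WT libraries (36.4%), 13 in replicate 1 only, 4 in replicate 2 only and 18 in neither. Over 20056 protein-coding RefSeq genes 26.2% had clusters in both, and over the 3356 of at least 100 kb 56.3% did. The list's median was 1 cluster per gene in replicate 1 and 0 in replicate 2, beside 0 and 0 for all protein-coding genes, but the list's genes were also longer, with a median of 60.4 kb against 24.1 kb.

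Among receptors, BMPR1A, a BMP receptor, had 45 clusters in replicate 1 and 34 in replicate 2, and none in KO. Per 100 kb this was 25.4 and 19.2, near the density of GPC3, and its ratio of cluster shares was 2.43. IGF1R, the receptor for insulin-like growth factors, had 57, 15 and 1. Among enzymes of the chain, EXT1, a polymerase of heparan sulphate, had 56 and 10. The sulphotransferases HS3ST5, HS6ST3 and HS6ST2 had 36 and 13, 32 and 11, and 32 and 8. HS6ST2 lies on chromosome X like GPC3, and its ratio of cluster shares was 0.803 against 2.67 for GPC3. KO had 1 cluster each in IGF1R, HS6ST3, FGFR2, HS6ST1 and COL18A1. Of the 5 secreted ligands on the list, named after their values were seen, FGF2 had 15 and 7 clusters in the WT libraries, and SHH, IHH, DHH and IGF2 had none.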

How the data were processed

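The authors deposited 1 table of clusters per library, called separately in each. Cutadapt 1.8.3, Bowtie 1.1.2, hg38 and GRCh38.p5 are named in the submitters' processing notes; the cluster caller and its filters are not given in the sources used here. The deposited counts of reads, distinct read sequences, converted positions and T events are whole numbers without normalisation, per the file headers. The deposited fraction of T-to-C reads per cluster was computed by the authors. The deposited fraction of reads ending in G exceeded 0.5 in 1.34% of minus-strand and 74.6% of plus-strand intronic clusters of WT replicate 1, although 81.04% and 67.6% of their sequences ended in G, so it was not used.

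Clusters were taken by gene name (HAVANA or ENSEMBL rows). Lengths and intervals came from RefSeq (GRCh38.p14); 9185 of 9754 gene names matched. Of 55 list genes, 55 matched. The smallest clusters had 5 reads. Clusters and genes are not replicates, so no test was run; values are given per library or as mean and SD over 2 WT libraries, and Wilson and exact 95% intervals cover counting error only, since reads carry no molecular identifiers. Overlap counting was tested on simulated data. Named items were GPC1 to GPC6, the 6 list genes with the largest share of clusters (geometric mean over WT, 0.5 cluster added) and those with a KO cluster, the 5 genes nearest to GPC3, the 5 deepest overlapping GPC3 pairs, and the deepest cluster per glypican and library. Members and lists were chosen with earlier results of these data known. Python 3.11.15, numpy 2.4.6, pandas 2.3.3 and scipy 1.17.1 were used.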

Additional observations from a re-analysis of the deposited data

How the results depend on the processing

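Over 11 results, 34 of 51 alternatives stayed within the limits set, 17 moved and 0 reversed. Only the ratio of GPC3 read shares has a direction that could reverse, so the 0 covers that result alone. For reads share, median reads, converted share, T content and clusters per 10 kb, the limit was the SD over the WT libraries. Leaving out either WT library always stays within that SD. Those alternatives were therefore unmoved by construction and test nothing. With at least 3 converted positions per cluster the WT mean of GPC3 clusters fell to 53 from 114.5, that of the other glypicans together to 20 from 64, and the list genes with clusters in both WT libraries to 13 from 20; the ratio of GPC3 read shares rose to 4.05 from 2.84, the converted share was 7.48% and T content 41.7%. That filter keeps fewer clusters by construction. T content was 40.4% with at least 10 reads and 41.4% without 3 nt at each end. With the 27155 deepest clusters of each WT library, GPC3 had 74.5 clusters on average (45 and 104), the other glypicans 37, and 13.5% of the WT replicate 2 clusters of GPC3 overlapped one of WT replicate 1; with gaps of up to 100 nt allowed it was 46.2%. The ratio of shares was 2.67 by clusters and 2.96 by intronic reads. The median converted share over clusters was 8.59%, and the median number of distinct read sequences was 3. Without WT replicate 1 or 2 in turn, GPC3 clusters were 104 and 125, their reads share 0.462% and 0.162%, median reads 46.5 and 25, converted share 7.65% and 7.78%, T content 39.99% and 40.1%, clusters per 10 kb 2.31 and 2.78, clusters of the other glypicans 48 and 80, and list genes with a cluster 24 and 33, since clusters in 1 library then suffice. No paired analysis was possible because the single KO library shares at most 1 replicate number with WT and no result comes from a test. The number of clusters and their depth limit the GPC2 and GPC5 results, which rest on 1 cluster each.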
